A study of Mus musculus with 4 samples.

Results

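Kinesins are motor proteins that use ATP to move along microtubules or to take their ends apart. Of the 54446 genes in the expression table, 47 had a symbol beginning with Kif followed by a digit or a c, and these 47 genes are described here. They were split by name into 11 mitotic members (Kif2c, Kif4, Kif11, Kif14, Kif15, Kif18b, Kif20a, Kif20b, Kif22, Kif23 and Kifc1) and 36 other members. The members were chosen with earlier results of these data known. The 36 held 31 further kinesin motor genes, the pseudogenes Kif4-ps, Kifc5c-ps and Kif22-ps, the antisense RNA Kif16bos, and Kif1bp, which encodes a kinesin binding protein and no motor. The split followed the symbols given, so Kif18a, also a motor of the mitotic spindle, stood with the other members, and Cenpe, a mitotic kinesin with another kind of symbol, was not a member.

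RNA was sequenced from mammary gland cells of wild type C57BL/6 mice, sorted by flow cytometry and grown in 3D culture in Matrigel. The cells carried the label basal or luminal, the outer and the inner layer of the mammary epithelium, and received either DMSO, the solvent control, or 100 μM baicalin, a plant flavonoid. Each of the 4 conditions had 1 library, so no p-value is given and no difference was tested against the spread between cultures. The study's methods give virgin or other female mice, within an age range of a few weeks, as the source of primary cells, with no age or number of mice for each library in the sources used here. Cells grown in Matrigel under medium with insulin and EGF are a culture model and not the gland itself.

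The recovered depth was between 19356083 and 20648736 fragments per library, and 1 fragment on 1 kb of exon was worth about 0.05 FPKM (FPKM being fragments divided by exon length and by library depth). The labels and the defining markers went opposite ways. All 10 basal markers, such as Krt5 and Acta2, were higher in the libraries labelled luminal, where they summed to 5404 FPKM with DMSO and 7199 FPKM with baicalin, against 1761 and 479 FPKM in the libraries labelled basal. All 10 luminal markers, such as Krt8 and Krt18, were higher in the libraries labelled basal, at 4414 and 3060 FPKM in sum against 1271 and 1075 FPKM. Every library is therefore called here by its label only. Markers of other cells were low. Fibroblast markers summed to 3.07 to 11.2 FPKM, endothelial markers to 0.876 to 3.46 FPKM, and immune markers to 4.54 to 51.6 FPKM, nearly all from Cd68, which was at 7.49 and 51.5 FPKM with DMSO and baicalin under the basal label and at 4.44 and 13.7 FPKM under the luminal label.

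During cell division, kinesins push spindle poles apart, capture and move chromosomes, trim microtubule ends and build the midzone where the cell is finally cut into daughters. Genes for these motors are typically transcribed late in the cell cycle, in G2 and mitosis, and are low in resting cells. The transport kinesins instead carry vesicles, mitochondria, RNA and ciliary components in dividing and resting cells alike.

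The promoters are shown first, because 1 short motif was present in every mitotic promoter window that was searched. Late cell cycle promoters often hold a cell cycle genes homology region (CHR), spelled TTTGAA, beside CCAAT boxes. Both motifs were searched on both strands in the RefSeq promoter of each gene on GRCm38.p6, 250 bases before to 50 bases after its start. The search covered 34 members, 10 of them mitotic, and left out the promoters of the mitotic member Kif20a and of Kif5b. The remaining members had no promoter matched, among them the expressed Kifc3, Kif13b, Kif21b, Kifc2 and Kif5a, so the other group was searched in part. TTTGAA was found in 10 of the 10 mitotic promoters, in 4 of the 24 others (16.7%, Kif1a, Kif26b, Kif27 and Kifc5b) and in 20.2% of the promoters of all 27025 genes. In Kif14, Kif2c, Kif27 and Kif1a the window with the motif belonged to a RefSeq start deep inside the gene as GENCODE gives it. These starts lay 1505, 3867, 4175 and 19471 bases inside, and whether they are used in these cells was not tested. CCAAT was found in 7 mitotic promoters (70%), in 10 of the others (41.7%) and in 41.1% of all. Both motifs together were found in 7 mitotic promoters, 3 others (12.5%) and 7.97% of all. The exact letters GGCGGGAA, 1 spelling of the E2F motif, were in 0 of the 10 mitotic promoters, in 2 others and in 2.52% of all. Other spellings of the E2F motif were not searched, so this count does not show that E2F sites are absent. The GC box GGGCGG, which can overlap GGCGGGAA, was in 5 mitotic promoters, 17 others (70.8%) and 38.2% of all. The 250 bases before the start of 3 genes are printed 5′ to 3′ on the strand of the gene, with TTTGAA and CCAAT in capitals, written as TTCAAA and ATTGG where the motif lies on the opposite strand. Kif11 and Kif18b stand for the mitotic members and Kif1c, a highly expressed transport member with neither motif, for the contrast.
Kif11 (chr19:37376132-37376381, + strand): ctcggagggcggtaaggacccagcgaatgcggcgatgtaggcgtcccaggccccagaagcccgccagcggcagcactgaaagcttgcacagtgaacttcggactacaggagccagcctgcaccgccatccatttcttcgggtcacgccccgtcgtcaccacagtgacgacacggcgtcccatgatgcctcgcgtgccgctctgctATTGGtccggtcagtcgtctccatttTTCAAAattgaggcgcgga
Kif18b (chr11:102925125-102925374, - strand): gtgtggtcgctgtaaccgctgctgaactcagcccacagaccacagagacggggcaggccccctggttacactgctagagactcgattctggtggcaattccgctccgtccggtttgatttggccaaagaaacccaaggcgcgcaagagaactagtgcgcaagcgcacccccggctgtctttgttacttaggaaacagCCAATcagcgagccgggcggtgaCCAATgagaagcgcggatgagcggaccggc
Kif1c (chr11:70700298-70700547, + strand): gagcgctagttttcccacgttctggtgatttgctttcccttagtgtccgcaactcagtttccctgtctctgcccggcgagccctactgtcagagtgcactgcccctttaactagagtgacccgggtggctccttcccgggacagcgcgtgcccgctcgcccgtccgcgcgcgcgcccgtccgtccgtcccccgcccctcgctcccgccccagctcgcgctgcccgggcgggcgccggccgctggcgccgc

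In Kif11 the CHR lay 19 bases and the CCAAT box 45 bases before the start, and in Kif18b the CCAAT boxes lay 53 and 30 bases before the start and the CHR just after it. A CHR within 30 bases of the start, a window chosen after the positions were seen, was found in 8 of the 10 mitotic promoters, in 2 of the 24 others and in 3.72% of all promoters. The 2 mitotic members without one were Kif14 and Kif2c. Their RefSeq starts lay 1505 and 3867 bases inside the gene as GENCODE gives it, and those of Kif4, Kif22, Kif15 and Kifc1, which had one, lay 328, 51, 35 and 28 bases inside. The sites near the start are printed below with the bases on either side, read on the strand where the motif, in capitals, is spelled TTTGAA, with the 8 mitotic members first and Kif26b and Kifc5b after them. In Kif20b the same letters follow at once again. A match is a description of the letters and not a measured binding site.
Kif11 (chr19:37376351-37376380, - strand): ccgcgcctcaatTTTGAAaaatggagacga
Kif15 (chr9:122951050-122951079, - strand): gatggccgcagaTTTGAAtttggcgcccca
Kif18b (chr11:102925104-102925133, - strand): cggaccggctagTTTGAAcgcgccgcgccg
Kif20b (chr19:34922353-34922382, + strand): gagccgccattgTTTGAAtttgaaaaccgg
Kif22 (chr7:127042420-127042449, + strand): ccgcttctctctTTTGAAttaccggggccc
Kif23 (chr9:61946780-61946809, - strand): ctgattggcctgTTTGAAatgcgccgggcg
Kif4 (chrX:100626072-100626101, + strand): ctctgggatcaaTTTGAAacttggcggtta
Kifc1 (chr17:33890615-33890644, + strand): acacccgccactTTTGAAtttcaacctccg
Kif26b (chr1:178529104-178529133, + strand): tgggagaatttcTTTGAActcagttagcga
Kifc5b (chr17:26917108-26917137, - strand): acaccagtcactTTTGAAtttcaacctccg

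Expressed kinesins were led by transport members in every library. Counted by length, Kif1c at 52.8 FPKM and Kif5b at 50.97 FPKM were the highest kinesins in the library labelled basal with DMSO, and the highest mitotic members there were Kif20a at 23.95 FPKM and Kif11 at 22.7 FPKM. The 11 mitotic members summed, with DMSO, to 123 FPKM under the basal label and 124 FPKM under the luminal label, which was 33.3% and 35.3% of the FPKM summed over all kinesin motor genes. With baicalin the mitotic sum was 19.1 FPKM in the library labelled basal and 66.1 FPKM in the library labelled luminal, or 6.78% and 19.7%. The 31 other motor genes summed to 247 and 227 FPKM with DMSO and to 263 and 269 FPKM with baicalin. In bulk RNA, fewer dividing cells and less RNA of these genes per cell cannot be told apart.

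**Figure D1:**
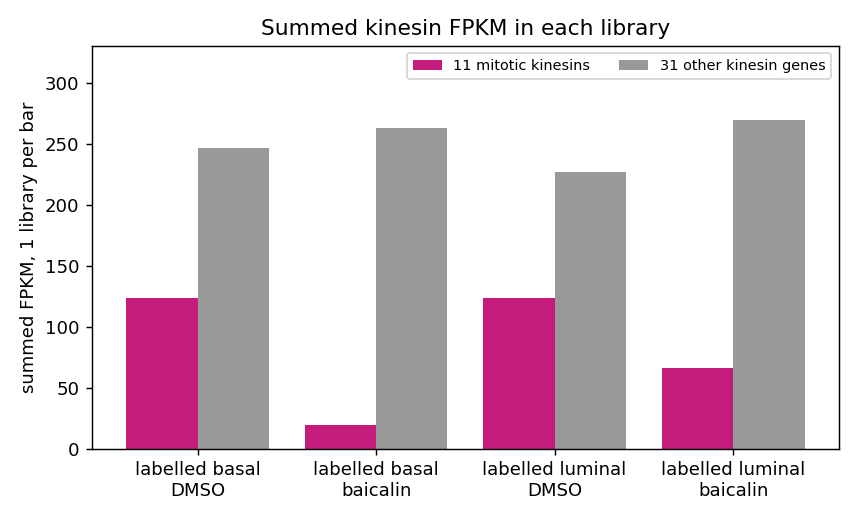
FPKM summed over the 11 mitotic kinesins and over the 31 other kinesin motor genes in each of the 4 libraries, 1 bar per sum and library, with the axis starting at 0. The mitotic sum was 123 and 124 FPKM in the DMSO libraries and 19.1 and 66.1 FPKM in the baicalin libraries, while the other sums lay between 227 and 269 FPKM.

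In the cells labelled basal, every mitotic kinesin was lower with baicalin than with DMSO, between 2.21-fold for Kifc1 and 11.5-fold for Kif15, with a median of 8.20-fold. The counting intervals below are exact Clopper-Pearson 95% intervals on the FPKM ratio, from the fragments recovered from the FPKM, and they cover counting error only. The spindle motors Kif11 and Kif15 had ratios among the lowest. Kif11, the motor that slides spindle poles apart, was at 22.7 FPKM with DMSO and 2.13 FPKM with baicalin in the library labelled basal, and at 24.6 and 11.1 FPKM in the libraries labelled luminal. Its baicalin to DMSO ratio was 0.0937 (0.0833 to 0.105) with the basal label and 0.453 (0.427 to 0.480) with the luminal label. Both DMSO libraries were thus close to each other, and the baicalin library labelled basal stood furthest below. Kif15, which works beside Kif11 on spindle bipolarity, was at 4.46 and 0.389 FPKM in the libraries labelled basal and at 5.35 and 2.38 FPKM in those labelled luminal. Its ratio was 0.0873 (0.0693 to 0.109) and 0.445 (0.401 to 0.494), the lowest of the 11 mitotic members under either label. Its intervals overlapped those of Kif11, Kif2c, Kif20a and Kif14 under both labels, of Kif4 under the basal label and of Kif22 under the luminal label.

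Kifc1, the minus end motor that bundles spindle poles, had the smallest fold under either label. It was at 9.20 FPKM with DMSO and 4.17 FPKM with baicalin in the libraries labelled basal, and at 10.1 and 7.65 FPKM in those labelled luminal. Its ratios were 0.453 (0.394 to 0.523) and 0.754 (0.672 to 0.846). Kifc1 shares 96.8% of its bases over 2312 bases with Kifc5b, which lay between 1.73 and 3.95 FPKM and whose own ratios were 0.546 (0.439 to 0.683) and 0.839, so the split of fragments between this pair is uncertain. The pair summed gave 0.478 (0.426 to 0.540) with the basal label and 0.779 with the luminal label.

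Motors that move or trim chromosome attachments followed the same order of libraries. Kif2c, a depolymerase at centromeres, was at 8.45 and 0.825 FPKM with the basal label and at 6.86 and 3.06 FPKM with the luminal label. Its ratios were 0.0976 (0.0757 to 0.124) and 0.447 (0.386 to 0.517). Kif22, which binds chromosome arms and pushes them outward, was at 8.55 and 1.27 FPKM with the basal label and at 8.98 and 4.28 FPKM with the luminal label. For these motors the DMSO libraries were again the high pair. Kif18b, which shortens astral microtubules, was at 7.77 and 1.38 FPKM with the basal label and at 7.56 and 4.99 FPKM with the luminal label. Its ratio with the luminal label, 0.660 (0.576 to 0.755), lay nearer to 1 than those of Kif2c and Kif22.

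Of the motors of the midzone and of cytokinesis, Kif20a and Kif23 were the most abundant. Kif20a, which carries the chromosomal passenger complex to the midzone, was at 23.95 and 2.92 FPKM with the basal label and at 26.5 and 13.03 FPKM with the luminal label. Its ratios were 0.122 (0.107 to 0.139) and 0.492 (0.458 to 0.528). Kif23, the motor of the centralspindlin complex, was at 14.4 and 2.61 FPKM with the basal label and at 12.3 and 7.61 FPKM with the luminal label, with ratios of 0.181 (0.163 to 0.201) and 0.621 (0.577 to 0.667). Kif20b, a further cytokinesis motor, was at 10.9, 2.02, 8.78 and 4.92 FPKM in the same order of libraries, basal label first and DMSO before baicalin. Kif4, which limits midzone length and acts on chromosome structure, was at 9.40, 1.03, 9.86 and 5.52 FPKM in that order. Kif14, which recruits citron kinase for the final cut, was the lowest mitotic member with DMSO, at 3.32, 0.381, 2.83 and 1.53 FPKM. In each of these 5 motors the order was the same, with the baicalin library labelled basal lowest and the baicalin library labelled luminal between it and both DMSO libraries.

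**Figure D2:**
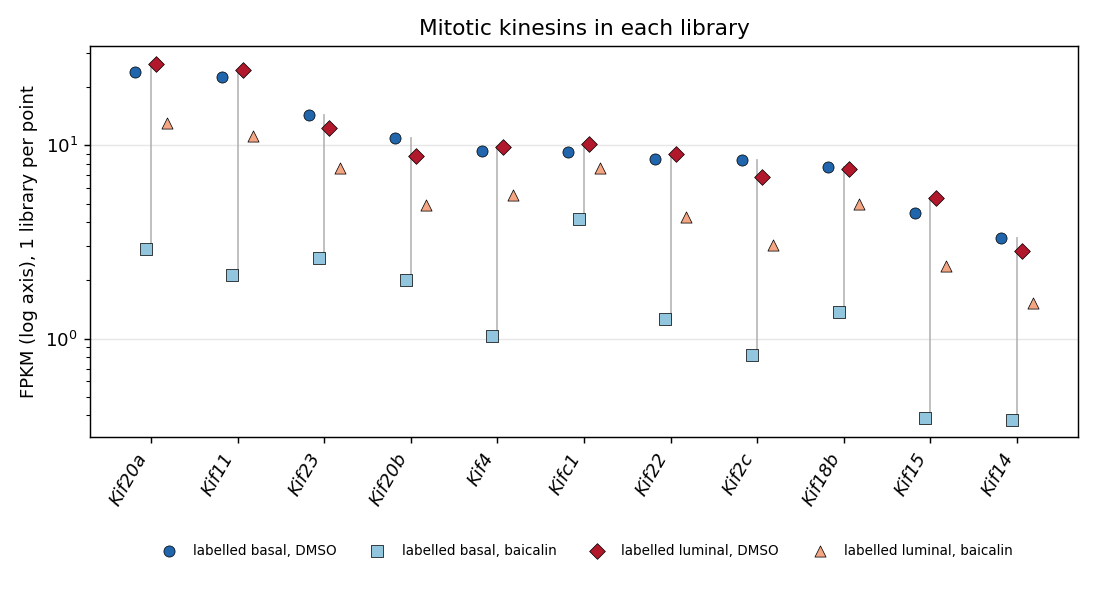
FPKM of the 11 mitotic kinesins in the 4 libraries on a log axis, 1 point per gene and library. In all 11 genes the point of the baicalin library labelled basal is the lowest, from 0.381 FPKM for Kif14 to 4.17 FPKM for Kifc1.

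Against the threshold of 1 on the log2((baicalin FPKM + 1)/(DMSO FPKM + 1)) scale, which understates the change of low genes, 10 of the 11 mitotic members were lower with baicalin under the basal label, beside 3.33% of the 17787 genes above 0 FPKM in all 4 libraries. None was higher, beside 2.15% of all genes. Kifc1 lay just inside at -0.98. The median log2 change of the 11 was -2.07, beside 0.01 over all genes, and no mitotic member remained at or above 5 FPKM, of 9 that had been there with DMSO. The counting interval of the ratio lay below 1 for all 11, beside 26.3% of all genes.

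With the luminal label the same 11 genes were lower with baicalin by smaller folds, from 1.33-fold for Kifc1 to 2.25-fold for Kif15, with a median of 1.84-fold. Only Kif11 passed the threshold, at -1.08, beside 1.59% of all genes that were lower, and none was higher, beside 2.37%. The median log2 change was -0.74 beside -0.02 over all genes. The counting interval lay below 1 for all 11, beside 28.7% of all genes, and 5 members were at or above 5 FPKM with baicalin, of 10 with DMSO. The count rests on the pseudocount, since 5 members passed with a pseudocount of 0.1 FPKM or with none.

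The treatment comparisons of the 2 labels share no library. The log2 change was more negative with the basal label for 11 of 11 mitotic members, and in all 11 the counting interval of the basal ratio lay wholly below that of the luminal ratio, beside 17.3% of all genes. The difference of the log2 changes, luminal minus basal, had a median of 1.37 and ran from 0.61 for Kifc1 to 1.85 for Kif11. Among the 28 other kinesins above 0 in all libraries the basal interval lay wholly below for 7, wholly above for 4, beside 18.9% of all genes, and overlapped for 17, and the median difference was 0.06. Without replicate cultures, whether this difference exceeds the variation between cultures was not tested. The sum of basal markers was 1761 FPKM with DMSO and 479 FPKM with baicalin under the basal label, where 1 of the 10 was higher with baicalin. It was 5404 and 7199 FPKM under the luminal label, where 5 of the 10 were higher, Krt14, Krt5 and Krt17 among them, and 5 were lower, with Acta2 at 555 and 417 FPKM. The sum of luminal markers was 4414 FPKM with DMSO and 3060 FPKM with baicalin under the basal label, where 3 of the 10 were higher with baicalin. Under the luminal label that sum was 1271 and 1075 FPKM, and 2 of the 10 were higher. The part of cell composition in the baicalin to DMSO ratios was not tested.

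**Figure D3:**
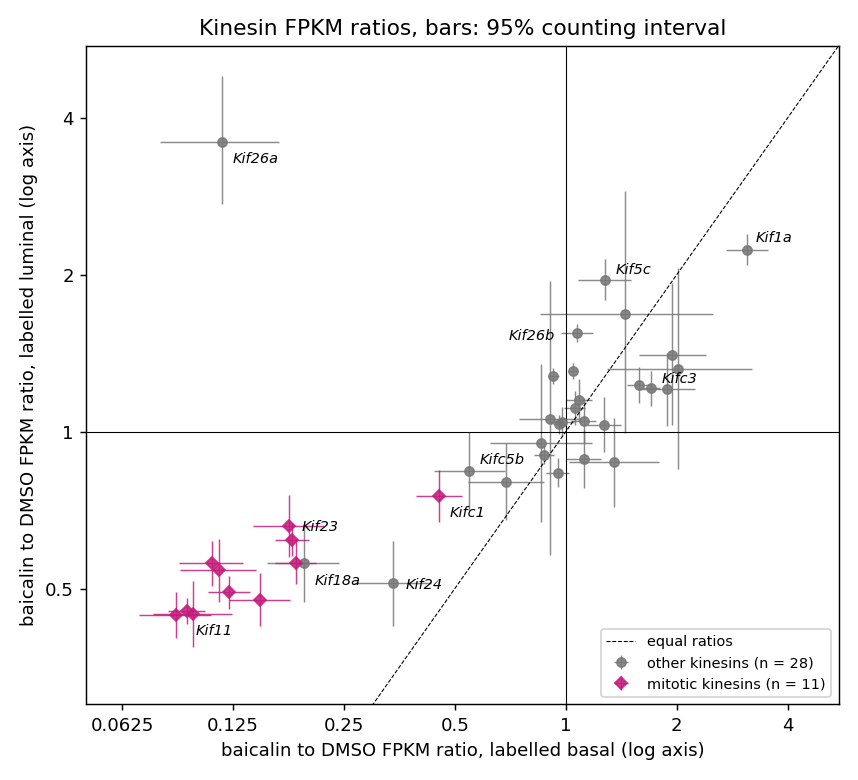
Ratio of baicalin to DMSO FPKM for the 39 kinesins above 0 FPKM in all 4 libraries, with the libraries labelled basal on the horizontal and those labelled luminal on the vertical log axis, bars giving the 95% counting interval and the dashed line equal ratios. The 11 mitotic members lie at the lower left and above the line, while the 28 others lie mostly around 1, with Kif18a and Kif24 toward the mitotic members, Kif1a high on both axes, and Kif26a at 0.117 and 3.61.

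The other kinesins moved in both directions with baicalin, mostly by small amounts. Of the 28 other members above 0 in all libraries, 1 was higher past the threshold with the basal label and 2 were lower, beside 2.15% and 3.33% of all genes. With the luminal label 1 was higher and 0 lower, beside 2.37% and 1.59%. The counting interval lay above 1 for 13 and below 1 for 8 with the basal label, beside 28.1% and 26.3% of all genes, and above 1 for 12 and below 1 for 5 with the luminal label, beside 22.9% and 28.7%. Their median log2 change was 0.08 with the basal label and 0.10 with the luminal label. The most abundant were the kinesin-1 heavy chain Kif5b, which hauls mitochondria and vesicles, and the kinesin-3 member Kif1c. Kif5b was at 50.97 and 53.3 FPKM with the basal label and at 34.6 and 45.2 FPKM with the luminal label. Kif1c was at 52.8 and 48.9 FPKM with the basal label and at 35.3 and 45.2 FPKM with the luminal label. Its ratio was 0.926 (0.897 to 0.957) with the basal label and 1.28 (1.23 to 1.33) with the luminal label, so that its intervals lay on opposite sides of 1, as for 5.21% of all genes and, of the kinesins, Kif26a, while 0 kinesins lay on the reverse sides, beside 5.4%. Together Kif5b and Kif1c held between 30.8% and 42.1% of the FPKM of the other kinesins.

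Kinesin-1 has further heavy chains known mainly from neurons. Kif5c was at 1.84 and 2.35 FPKM with the basal label and at 5.14 and 10.05 FPKM with the luminal label, and Kif5a was between 0.478 and 0.634 FPKM in every library. Kif5c was thus above 5 FPKM in the libraries labelled luminal only, with a baicalin to DMSO ratio of 1.96 there. Kinesin-2, the motor of ciliary transport, was led by Kif3a at 17.2, 19.3, 10.8 and 11.4 FPKM and its partner Kif3b at 16.0, 16.9, 11.7 and 12.995 FPKM. Kif3c was between 3.59 and 5.33 FPKM, and Kif17 between 0.341 and 0.689 FPKM. All 4 kinesin-2 genes were within the threshold in every comparison. Between labels, Kif3a and Kif3b were higher in the libraries labelled basal under either treatment.

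Kinesin-3, which moves synaptic and other vesicles, held members with flat and with differing levels. Kif1b was at 16.8, 16.1, 13.3 and 13.7 FPKM, Kif13a at 13.5, 11.8, 26.6 and 24.1 FPKM, Kif16b at 8.39, 7.99, 11.2 and 9.33 FPKM, and Kif13b at 4.26, 6.74, 4.19 and 5.15 FPKM, with basal label first and DMSO before baicalin. Kif28 was between 0 and 0.0682 FPKM, with at most 5 fragments. Kif1a, a motor of synaptic vesicle precursors, was the only kinesin past the threshold upward in both treatment comparisons. It was at 1.58 FPKM with DMSO and 4.91 FPKM with baicalin with the basal label, and at 6.21 and 13.9 FPKM with the luminal label. Its ratios were 3.10 (2.72 to 3.55) and 2.24 (2.09 to 2.40), and the lowest of its 4 libraries was the DMSO library labelled basal.

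**Figure D4:**
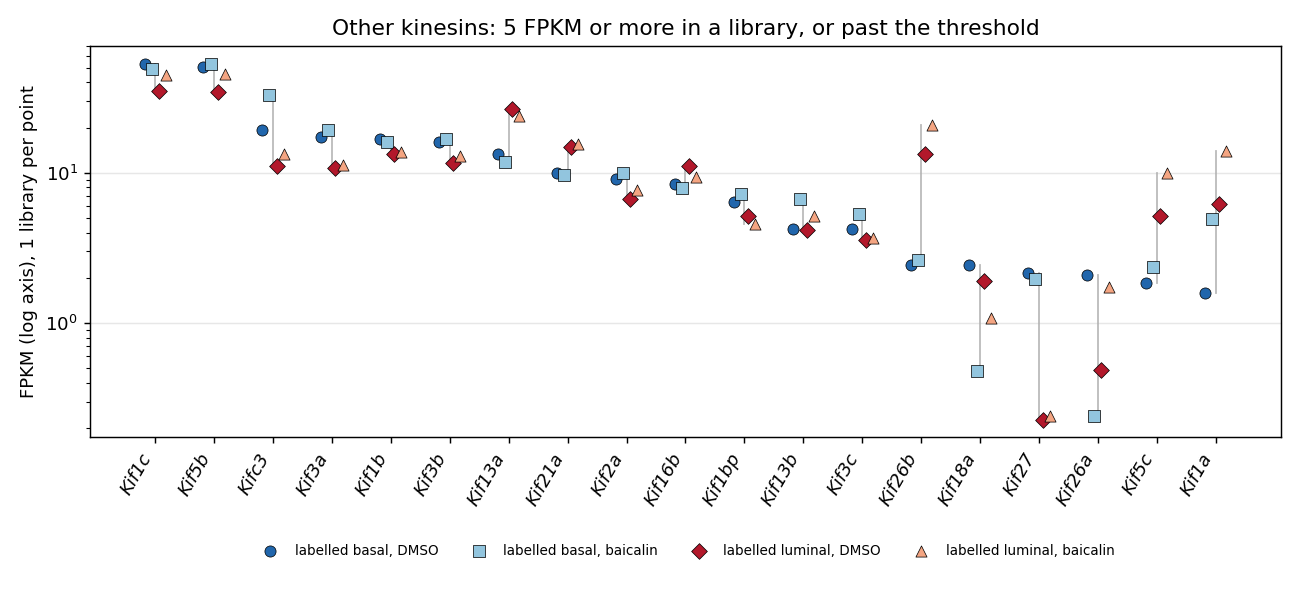
FPKM of the other kinesins with at least 5 FPKM in a library or a log2 difference past 1 in a comparison, on a log axis, 1 point per gene and library. Kif5b and Kif1c are highest in all 4 libraries, and Kif26b, Kif1a and Kif5c are higher in the libraries labelled luminal. The lowest of the 4 points of Kif18a is that of the baicalin library labelled basal, at 0.476 FPKM, where Kif26a is at 0.242 FPKM.

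Among kinesin-4 genes, Kif21a, which tempers microtubule growth, was at 9.96, 9.70, 14.8 and 15.5 FPKM, and Kif27, a relative of the Hedgehog pathway motor Kif7, at 2.16, 1.96, 0.228 and 0.241 FPKM. Kif7 and Kif21b stayed below 5 FPKM in every library. Kif26b, a kinesin-11 member with little motor activity, was at 2.45 and 2.63 FPKM with the basal label and at 13.5 and 20.8 FPKM with the luminal label. Its relative Kif26a was the member with opposite changes of the greatest size. Kif26a was at 2.075 FPKM with DMSO and 0.242 FPKM with baicalin with the basal label, a ratio of 0.117 (0.0793 to 0.167) on 285 and 34 fragments. With the luminal label it was at 0.485 and 1.75 FPKM, a ratio of 3.61 (2.73 to 4.81) on 65 and 250 fragments. All 4 levels were low.

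Of the other group, Kif18a, Kif24, Kif7 and Kif13a had counting intervals below 1 under both labels. Of all genes, 26.3% lay below 1 under the basal label and 28.7% under the luminal label, and the share below 1 under both was not counted. Kif18a, which dampens chromosome movement on the spindle, was at 2.45 and 0.476 FPKM with the basal label and at 1.92 and 1.07 FPKM with the luminal label. Its ratios were 0.195 (0.154 to 0.243) and 0.560 (0.471 to 0.664), within the range of the 11 mitotic ratios under either label. Kif24, which restrains cilium formation at the centriole, was at 1.72, 0.584, 2.09 and 1.07 FPKM. Its ratios of 0.341 (0.267 to 0.432) and 0.512 (0.424 to 0.617) were also within the range of the 11 mitotic ratios. Kif24 was within the threshold under either label, at -0.78 and -0.58, but at -1.41 under the basal label with a pseudocount of 0.1 FPKM. Kif7 had ratios of 0.690 and 0.802, and Kif13a of 0.875 and 0.904. Kif2a, a depolymerase related to Kif2c that is also active outside mitosis, was at 9.13, 9.94, 6.71 and 7.73 FPKM, and Kif2b was listed at 0 in every library. Of the kinesin-14 genes, Kifc3, a minus end motor at cell junctions, was the highest at 19.3 and 32.9 FPKM with the basal label and 11.1 and 13.5 FPKM with the luminal label. Its ratio was 1.70 with the basal label and 1.21 with the luminal label, and both changes were within the threshold. The kinesin binding protein gene Kif1bp was at 6.44, 7.21, 5.15 and 4.57 FPKM.

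Compared between labels, the mitotic members were close in the DMSO libraries and apart in the baicalin libraries. These comparisons share their libraries with the treatment comparisons, so they are the same values set side by side in another order. With DMSO 0 of the 11 passed the threshold in either direction, beside 4.71% of all genes higher and 3.86% lower in the library labelled luminal. The median log2 difference was 0.06, and the ratios ran from 0.803 to 1.20. Their intervals lay above 1 for 3 members, below 1 for 4, beside 30.5% and 30.2% of all genes, and across 1 for 4. With baicalin 8 of the 11 were higher in the library labelled luminal past the threshold, beside 5.24% of all genes, and the interval lay above 1 for all 11, beside 25.8%. The 8 left out Kifc1 at 0.74, Kif14 at 0.88 and Kif20b at 0.97, and the median difference was 1.25 beside -0.03 over all genes. The greatest difference was that of Kif11, at 1.96, and none of the 11 was lower, beside 2.99% of all genes.

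The other kinesins differed between labels in both directions. The counting interval excluded 1 for 24 of the 28 with either treatment, 11 higher and 13 lower in the library labelled luminal with DMSO, beside 30.5% and 30.2% of all genes, and 12 higher and 12 lower with baicalin, beside 25.8% and 33.7%. With DMSO, Kif26b, Kif1a and Kif5c were higher in the library labelled luminal past the threshold, and Kif27 and Kif26a were lower, beside 4.71% and 3.86% of all genes. With baicalin the 4 higher members were Kif26b, Kif5c, Kif1a and Kif26a, and the 2 lower ones were Kif27 and Kifc3, the last at -1.23, beside 5.24% and 2.99%. The Kif26b ratio, luminal to basal label, was 5.49 (5.07 to 5.95) with DMSO and 7.92 (7.35 to 8.54) with baicalin. The Kif27 ratio was 0.105 (0.0654 to 0.162) with DMSO and 0.123 (0.0787 to 0.186) with baicalin, on 224 and 23 fragments in the DMSO libraries. Kif26a changed sides between the treatments, at a log2 difference of -1.05 with DMSO and 1.15 with baicalin. Over the 28 members the median difference was -0.07 with DMSO and -0.08 with baicalin.

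**Figure D5:**
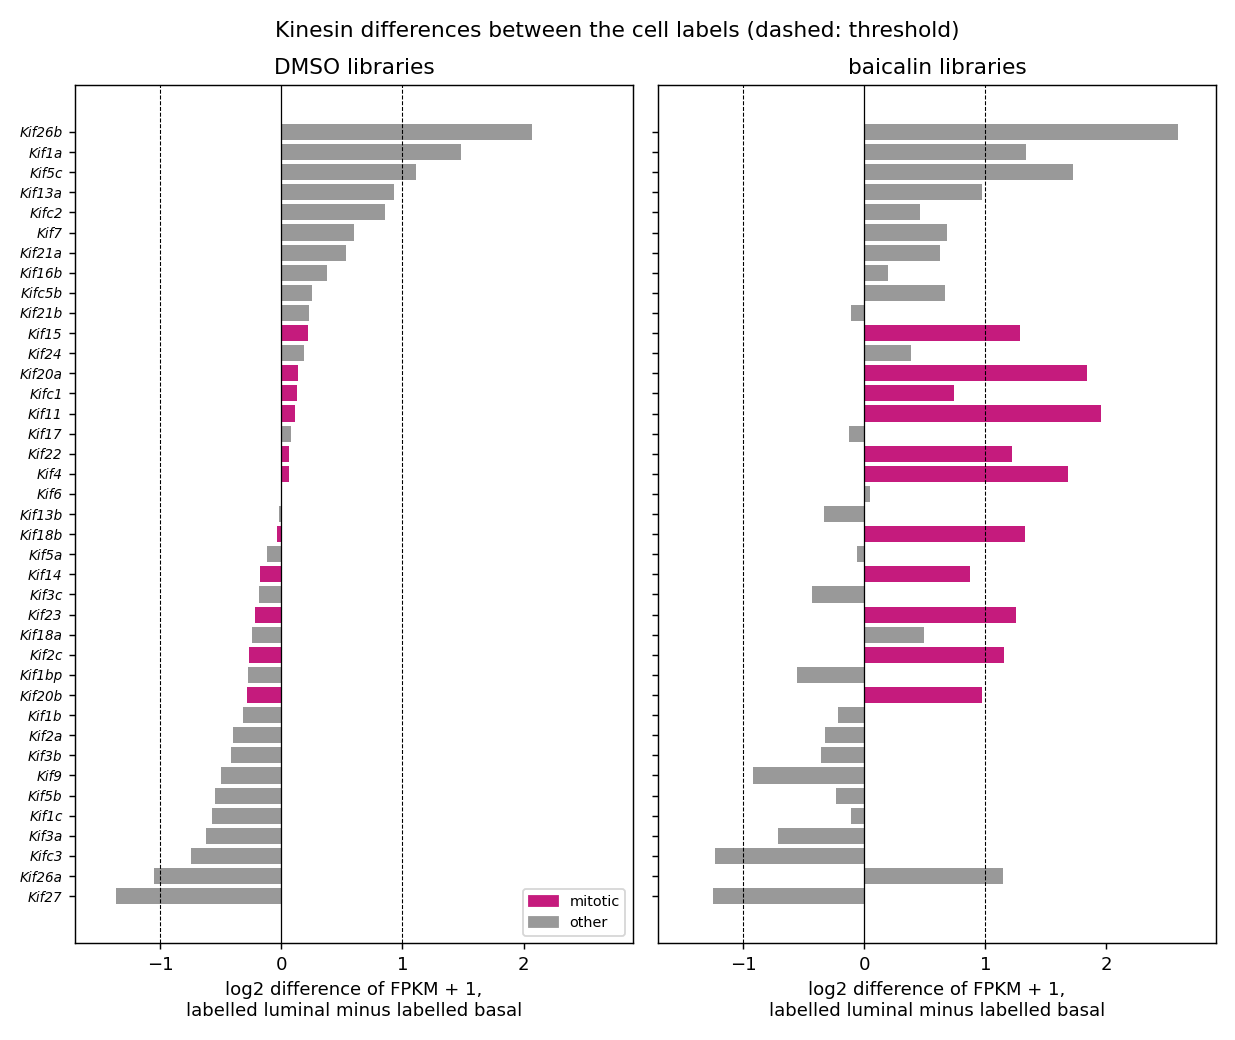
Log2((FPKM labelled luminal + 1)/(FPKM labelled basal + 1)) of the 39 kinesins above 0 FPKM in all 4 libraries, for the DMSO and the baicalin libraries. The mitotic members lie between -0.29 and 0.22 with DMSO and between 0.74 and 1.96 with baicalin.

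Genes whose products work with the kinesins were read from lists, described by counts. Of 21 partners of the mitotic kinesins, such as the chromosomal passenger complex, centralspindlin and mitotic checkpoint genes, 19 were lower with baicalin past the threshold under the basal label and 4 under the luminal label, beside 3.33% and 1.59% of all genes, and none was higher. Their medians were -2.23 and -0.76. The list holds Cenpe, which was at 15.1, 2.24, 12.8 and 7.63 FPKM. The proliferation antigen Mki67 was at 54.0 and 4.06 FPKM with the basal label and at 68.6 and 25.9 FPKM with the luminal label. Top2a, the topoisomerase of mitotic chromosomes, was at 41.7, 5.17, 43.9 and 21.1 FPKM, and Incenp, a scaffold of the passenger complex that Kif20a carries, at 28.3, 7.46, 32.5 and 20.6 FPKM. The 2 partners within the threshold under the basal label were Numa1 and Ckap5. Of 12 kinesin light chains and cargo adaptors and of 23 dynein and dynactin subunits, the parts of the opposing minus end motor, 0 passed in any of the 4 comparisons, where the share of all genes past it was 1.59% to 5.24% in each direction, so that 0 was near the background for lists of this size. Their medians under the basal label were 0.05 and 0.02, and under the luminal label -0.0022 and 0.01. Between labels, 0 of the 21 partners passed with DMSO, beside 4.71% of all genes higher and 3.86% lower, and 18 were higher with the luminal label in the baicalin libraries, beside 5.24%, where their median difference was 1.41.

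Of the 47 members, 39 were above 0 FPKM in all 4 libraries, all 11 mitotic members among them. The 8 others not above 0 were Kif19a, Kif28 and Kif16bos, with at most 5 fragments in a library, and Kif4-ps, Kifc5c-ps, Kif12, Kif2b and Kif22-ps, which were at 0 in every library. Members whose levels are not given above were Kif7, Kifc2, Kif9, Kif21b and Kif6, which lay between 0.206 and 3.44 FPKM. Whether the counting used strand is not stated, so fragments of a gene that overlaps on the opposite strand cannot be told apart from those of the kinesin. Among such exon overlaps were those of 29.3% of Kif20a, by Cdc23 at up to 6.24 FPKM, 15.1% of Kif4, by Pdzd11 at up to 18.5 FPKM, 19.2% of Kif2a, by Dimt1, and 35.3% of Kif3c, by 1110002L01Rik.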

How the data were processed

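RNA was measured by sequencing in 4 libraries, 1 per condition, grouped by their labels. The authors selected mRNA on oligo (dT), prepared stranded libraries and, per the paper's methods, aligned the reads to GRCm38 with HISAT2 and counted them with featureCounts 1.5.0 on the Ensembl release 94 annotation. The submitters' processing notes also name Bowtie 0.12.2 and mm8. The authors deposited FPKM for 54446 genes, and whether counting used strand is not given in the sources used here.

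The FPKM multiplied by the exon length from GENCODE mouse release 21 fell on steps of 1 fragment. For 98.8% to 99.0% of low genes the value lay within 0.05 of a fragment plus the rounding of the FPKM. Depths and fragments per gene were recovered from these steps. Genes above 0 FPKM in all 4 libraries were kept, which left 17787. Differences were computed as log2((a + 1)/(b + 1)) with a threshold of 1. With 1 library per condition no test was made. Ratios were given exact Clopper-Pearson 95% intervals from the fragments.

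The members and the lists were chosen with earlier results of these data known. Lists were the mitotic kinesins, the other kinesin families, partners of mitotic kinesins, light chains and adaptors, dynein and dynactin, DNA replication, regulators of mitotic transcription, and markers of 5 cell types. Values were named for all 11 mitotic members, for other members with at least 5 FPKM in a library or past the threshold, for the lowest and highest of each family, and for at most 3 genes of a list of other genes. Values of Cenpe, Cd68, Acta2 and Kif7 and the names Numa1, Ckap5, Krt5, Krt14, Krt17, Krt8, Krt18, Kif24 and the overlapping genes were given outside this rule, some after their values were seen. Alternatives were a pseudocount of 0.1 FPKM or none, TPM, centring on the median ratio, a threshold of 2, and other filters. The deposited table holds no comparisons of the authors. The computation was tested on simulated data. Promoters came from RefSeq on GRCm38.p6, without those of Kif20a and Kif5b, which were not used, and without members that had no promoter matched. Analyses ran in Python 3.11.15 with scipy 1.17.1, pandas 2.3.3, numpy 2.4.6 and matplotlib 3.10.9.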

Additional observations from a re-analysis of the deposited data

Results flagged for a closer look

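The kinesins Kif26a and Kif1c had baicalin to DMSO ratios on opposite sides of 1 under the 2 labels, with counting intervals that excluded 1 under both, and neither difference was tested, since each condition has 1 library. Kif26a had a ratio of 0.117 with the basal label and 3.61 with the luminal label, on 34 to 285 fragments per library. Kif1c had a ratio of 0.926 with the basal label and 1.28 with the luminal label. Of all genes, 5.21% were below 1 under the basal label and above 1 under the luminal label by the same intervals, and 5.4% the reverse.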

How the results depend on the processing

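No paired analysis was possible because each condition has 1 library. The number of mitotic members past the threshold with baicalin under the basal label, 10, was 6 at a threshold of 2. Under the luminal label it was 1, and it was 5 with a pseudocount of 0.1 FPKM, with no pseudocount or with TPM, and 0 at a threshold of 2. Of the other kinesins, 3 passed under the basal label, against 5 with no pseudocount and 0 at a threshold of 2, and 1 passed under the luminal label, against 2 with a pseudocount of 0.1 FPKM, none, or TPM, and 0 at a threshold of 2. Between labels with DMSO, 5 other kinesins passed, against 1 at a threshold of 2. With baicalin, the 8 mitotic members became 0 at a threshold of 2, and the 6 other kinesins became 10 with no pseudocount and 1 at a threshold of 2. The remaining counts stayed within 1.5 times the reported one, also without Kif1bp, an alternative chosen after seeing the data. Of 156 named kinesin differences, 59 moved by more than their counting interval with TPM, 63 with no pseudocount, 55 with a pseudocount of 0.1 FPKM and 5 with centring, and 0 changed sign past the threshold. Over the alternatives the median log2 change of the mitotic members ran from -3.04 to -2.03 under the basal label and from -0.88 to -0.70 under the luminal label, and their median difference between labels from -0.04 to 0.09 with DMSO and from 1.24 to 1.89 with baicalin. The pseudocount of 1 was also added to the TPM, so the TPM setting changed the weight of the pseudocount as well as the scaling. The scaling alone shifted all genes by -0.034 and 0.0044 in the treatment comparisons, basal label first. Between labels it shifted them by -0.11 with DMSO and -0.07 with baicalin. Low depth limits Kif27, Kif26a and Kif6.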

Other observations

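Genes of DNA replication act before mitosis. A list of 11 replication genes held Gins1, Gins2 and Pcna beside the genes of licensing, the loading of the helicase. Of the 11, 8 were lower past the threshold with the basal label and 2 with the luminal label, beside 3.33% and 1.59% of all genes. Their medians were -1.25 and -0.76 on the log2 scale. Mcm6, a helicase subunit, was at 37.965 and 7.80 FPKM with the basal label and at 40.6 and 17.9 FPKM with the luminal label. Of 11 regulators of mitotic transcription, 3 were lower and 1 was higher with the basal label, beside 3.33% and 2.15% of all genes, and 0 were lower and 1 was higher with the luminal label, beside 1.59% and 2.37%. The 3 were Foxm1, which activates late cell cycle genes, at 8.55 and 1.29 FPKM, Mybl2, its partner on CHR promoters, at 6.01 and 0.905 FPKM, and Rbl1, a pocket protein, at 10.2 and 3.94 FPKM. The higher gene was Cdkn1a, an inhibitor of cyclin-dependent kinases, at 29.0 and 106 FPKM with the basal label and at 24.7 and 72.7 FPKM with the luminal label.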
